A study of Homo sapiens with 21 samples.

Results

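The sites described here are intronic HNRNPK binding sites that were found in the cytoplasm of both cell lines and in neither nucleus. They are the clusters of the parental cytoplasmic library annotated as intron by the authors that shared at least 1 nt and the strand with a cluster of the KRT19 KO cytoplasmic library and overlapped no cluster of either nuclear library. In all, 10209 sites met the rule, of 123370 intronic clusters in the parental cytoplasm and of 28173 intronic clusters that both cytoplasms shared. The whole series held 778762 clusters in 4 libraries. Members were thus chosen by measured values, namely the presence or absence of a cluster in each library, and their pattern over the libraries is a description and not a finding.

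Binding was measured by PAR-CLIP with an antibody against HNRNPK in cells of the breast cancer line MDA-MB-231, which is triple-negative, either parental or with KRT19 knocked out by CRISPR-Cas9. Both cell lines were fed 4-thiouridine (4SU), irradiated with ultraviolet light and fractionated into cytoplasm and nucleus. The groups were parental cytoplasm, KRT19 KO cytoplasm, parental nucleus and KRT19 KO nucleus, with 1 library each, so nothing below is checked by a replicate and no p-value was computed. The labels do not say whether the knockout line is 1 clone, and the line and the genotype cannot be told apart.

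HNRNPK is an RNA binding protein of the poly-C binding family whose K-homology domains prefer cytidine-rich RNA. It is mostly nuclear, where it meets pre-mRNA with its introns, and it also shuttles to the cytoplasm, where spliced mRNAs are found. In PAR-CLIP, a crosslinked 4SU appears as a T-to-C change in the reads, and a cluster is a short stretch of overlapping reads that carry such changes. Fragments were made with RNase T1, which cuts RNA after G, so G is scarce inside clusters of any kind.

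Reads in clusters ranged from 3252800 to 6216226 per library, with the lower totals in the nuclei. A cluster held at least 5 reads. At the depth of the parental nuclear library, the median site would have had 8.28 reads, and 20.5% of the sites would have had under 5. From the KRT19 KO cytoplasmic reads to the KRT19 KO nuclear total the corresponding values were 5.76 reads and 42.4%. On this scale of all reads in clusters, absence from the nuclei was not detectable as such for many of the sites. Reads in intronic clusters alone were not lower in the nuclei, with 2351033 in the parental cytoplasm and 2368879 in the parental nucleus. In KRT19 KO they were 1431416 and 1941303, so this limit depends on the scale. MALAT1, a nuclear noncoding RNA, had 1229 and 842 of every 1000000 reads in clusters in the parental and KRT19 KO cytoplasms and 888 and 548 in the corresponding nuclei. NEAT1, another nuclear noncoding RNA, had 226.4 and 204 in the cytoplasms and 789 and 1092 in the nuclei. MALAT1 was thus higher in the cytoplasms, against the fraction labels, and NEAT1 was higher in the nuclei, and the part that nuclear RNA in the cytoplasmic fractions had in the results was not tested. KRT19 itself had 7 and 5 reads in the cytoplasms, parental first, too few to check the genotype.

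The 10 sites with the most reads in both cytoplasms together are shown first, because their letters have the most reads behind them. Read number alone does not tell where the reads came from. Each line gives up to 30 nt of the cluster around its crosslink mode, as RNA from 5′ to 3′, with matches to the HNRNPK motif, searched on the RNA strand only as [U/A][U/C/A]CCC, in capitals. Coordinates are GRCh37 (hg19), and the sequence of every one of the 10209 clusters was equal to that genome.
SEC31A site, chr4:83814880-83814909, minus strand: uuuuuuaucuuuuaaccauuuuuccacaaa
AVL9 site 1, chr7:32624017-32624046, plus strand: uuucUACCCacaaaacauuuauuaauucac
IRS1 site, chr2:227658163-227658192, minus strand: uauuuacuucaacauuuauuuucaucauuc
MRPL19 site, chr2:75895682-75895711, plus strand: aauaauuauuUUCCCauauucuuaaaaauu
SARS site, chr1:109758122-109758151, plus strand: auauacauauacacauuuauacauaaaauc
AVL9 site 2, chr7:32623896-32623925, plus strand: ugcuaaaauuaauuuauauuaccauuuucu
ATL2 site, chr2:38524189-38524218, minus strand: uuauucuauuuaaauuuuuaucucaaucuc
PEX13 site, chr2:61246113-61246142, plus strand: auaccuauauauucacuacucaacuuuaaa
MASTL site, chr10:27456261-27456290, plus strand: aauauuauaccuuuucauauaaauuccaua
RYR2 site, chr1:237766611-237766640, plus strand: agaauaagugggaggccccuggugcccccc
The motif was in 2 of these 10 windows. The other windows are mostly U and A with short runs of C, except for RYR2, whose runs of C lie next to G.

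For contrast, the 4 intronic sites with the most reads in the parental nucleus among those found in both nuclei and in no cytoplasm are shown in the same way, and 3 of the 4 hold the motif.
FRMD5 nuclear site, chr15:44445728-44445757, minus strand: UUCCCauUUCCCuAUCCCCucAACCCCugg
RBM39 nuclear site, chr20:34327759-34327788, minus strand: aaacauuucacuaaaccuuuuaaaaauaau
EIF4A1 nuclear site, chr17:7480312-7480341, plus strand: auauaucucucccacauUUCCCuaaucaua
HMGA2 nuclear site, chr12:66277527-66277556, plus strand: cuuuccaaauaaauucUCCCCuauuaaaau
The FRMD5 site, with 653 reads the highest of that set, holds the motif several times over.

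The cytoplasm-only intronic sites were poor in C and rich in A relative to the other intronic sites shared between libraries. Their 290005 bases were 34.7% A, 24.3% C, 3.92% G and 37.0% U. The 6569 intronic sites found in all 4 libraries held 31.4% C and 30.4% A, and the 10355 intronic sites found in both nuclei and no cytoplasm held 30.5% C and 29.1% A. The 11395 intronic sites of both cytoplasms and 1 nucleus lay between, with 28.1% C and 32.8% A. The C content of the cytoplasm-only sites was nearer to the 22.4% of the 6444 3'UTR sites with the same pattern of libraries, while their A content was above that of the 3'UTR sites, 30.3%. Intronic clusters of the parental cytoplasm found in no other library held 24.2% C, so a C content this low was not particular to the cytoplasm-only sites, and 31.1% A. In the cytoplasm-only sites C made up 24.6% of the bases in those of 5 to 9 reads and 24.2% in those of 100 reads or more.

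**Figure D1:**
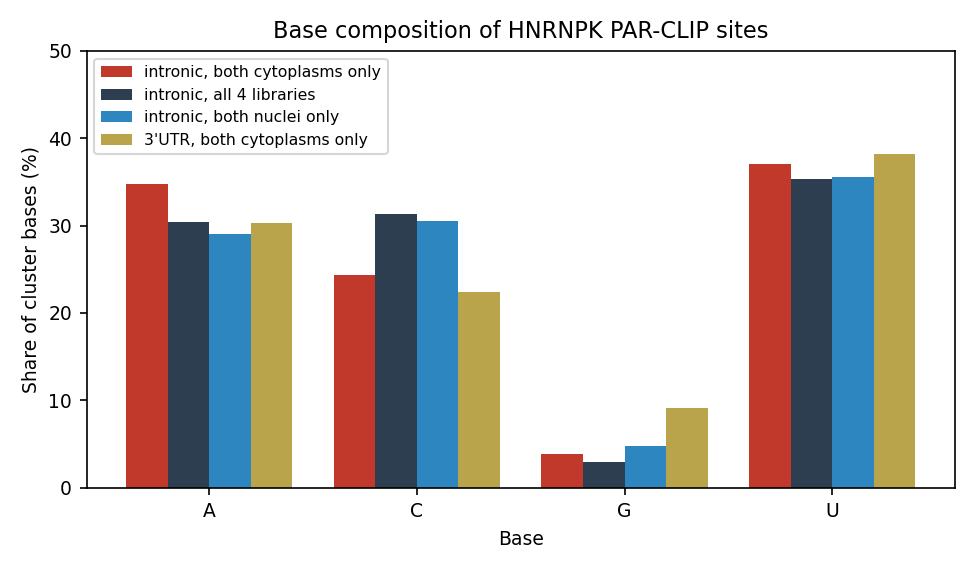
Base composition (percent of cluster bases, vertical axis) of 4 sets of HNRNPK sites, 1 bar per set and base. The cytoplasm-only intronic sites, the first bar of each base, stand at 24.3% C against 31.4% and 30.5% in the other intronic sets, and at 34.7% A, the highest of the 4 sets.

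The genome around the sites differed in the same direction but less. In the 200 nt on either side of the cytoplasm-only sites, C made up 18.6% and A 29.5%. Around the sites of all 4 libraries the values were 19.6% and 28.5%, and around the nuclear sites 20.8% and 27.1%. The letters AAUAAA, which include the usual polyadenylation signal, were found on the same strand in the 200 nt after 18.4% (95% Wilson interval 17.6 to 19.1%) of the cytoplasm-only sites, 15.8% (15.0 to 16.7%) of the sites in all 4 libraries and 13.2% (12.5 to 13.8%) of the nuclear sites. In the 200 nt before the sites the shares were 18.1%, 16.3% and 13.9%, so the order was the same on both sides. A match is a description of letters and not a used signal. Intervals here and below cover counting error only, and reads are not independent molecules.

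The full motif was in 3050 of the cytoplasm-only sites, a share of 29.9% (29.0 to 30.8%). It was in 54.9% (53.7 to 56.1%) of the sites in all 4 libraries, 42.8% (41.9 to 43.8%) of the sites in both nuclei and 42.3% (41.4 to 43.2%) of those in both cytoplasms and 1 nucleus. The difference from the sites in all 4 libraries was -24.99 percentage points (95% Newcombe interval -26.5 to -23.5), and from the sites in both nuclei -12.9 points (-14.2 to -11.6). The 3'UTR sites with the same pattern of libraries held the motif in 21.8%, and the difference was 8.04 points (6.69 to 9.38). The cytoplasm-only sites therefore lay between these intronic sets, all of which have nuclear clusters, and the 3'UTR sites, and all these intervals leave out 0.

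The share of 29.9% was close to that of all intronic clusters in the parental cytoplasm, 30.6%, which include those with nuclear counterparts. Among clusters of 26 to 30 nt the motif was in 28.6% of the cytoplasm-only sites and in 29.2% of all parental cytoplasmic intronic clusters, against 52.5% of the sites in all 4 libraries and 42.1% of the nuclear sites. Intronic clusters of the parental cytoplasm with no counterpart in any other library held it in 23.5% (23.2 to 23.8%), below the cytoplasm-only sites.

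Cluster length was not held equal between the classes of read number below, and its part was not tested. The motif share was higher in sites with more reads. It was 26.8% (25.3 to 28.3%) in cytoplasm-only sites of 5 to 9 reads, 34.7% in those of 20 to 49 reads and 46.3% (37.2 to 55.7%) in the 108 sites of 100 reads or more. In each class of read number it was below the share in the sites of all 4 libraries, which went from 43.98% to 67.2%, and below that in the nuclear sites, which went from 39.5% to 71.7%. The narrower motif U[U/C]CCC was in 18.0% of the cytoplasm-only sites, 38.2% of the sites in all 4 libraries and 28.5% of the nuclear sites. Plain CCC, which any of these motifs contains, was in 38.0%, 65.5% and 53.5%.

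**Figure D2:**
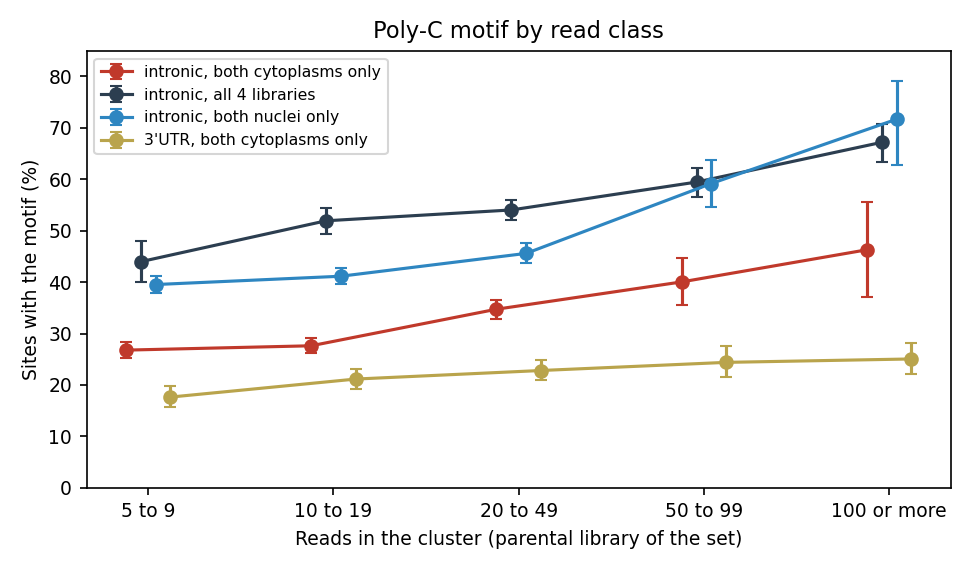
Share of sites that hold [U/A][U/C/A]CCC (percent, vertical axis) by reads in the cluster (horizontal axis), with points for the share and bars for 95% Wilson intervals. The cytoplasm-only intronic sites run from 26.8% to 46.3% and stay below both other intronic sets and above the 3'UTR sites in all 5 classes.

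The most frequent words of 5 nt also differed between the sets. UAAAA was the first word of the cytoplasm-only sites and was in 24.7% of them, followed by UUAAA with 23.8%, UUUAA with 23.5% and AAAAU with 23.5%. Of their first 10 words, 9 were made of A and U alone and 0 held CCC. In the sites of all 4 libraries UUCCC came first with 28.3%, and 5 of the first 10 words held CCC. UUCCC was also first in the nuclear sites with 20.4%, and in the cytoplasm-only sites it ranked 30 with 13.2%. The 3'UTR sites of both cytoplasms had 7 words of A and U alone among their first 10 and shared 6 of the 10 with the cytoplasm-only intronic sites.

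The cytoplasm-only sites were modest in size. They held 195639 reads in the parental cytoplasm, 3.52% of that library, with a median of 13 reads and a range from 5 to 474. In the KRT19 KO cytoplasm they held 177658 reads, 2.86% of the library, with a median of 11 and a maximum of 1499. Sites in all 4 libraries had a median of 29 parental reads, and the share of shared intronic clusters that were cytoplasm-only fell from 55.2% at 5 to 9 reads to 9.53% at 100 reads or more. The rule itself favours low sites, since a low site is more easily missed in a nuclear library.

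Crosslinking marks were present at the cytoplasm-only sites. Of their parental reads 66.4% carried a T-to-C change, against 62.4% in the sites of all 4 libraries and 70.1% in the nuclear sites, and in the KRT19 KO cytoplasm the share was 65.9%. Cluster calling itself asks for such changes. They had 2.16 conversion locations on average, against 3.74 in all 4 libraries and 1.69 in the nuclear sites. A single unique read lay behind 1018 of the cytoplasm-only sites, 9.97%, and behind 1.26% and 22.3% of the other sets. The position with the strongest signal was the same in both cytoplasms for 13.05% of the sites and within 5 nt for 53.9%. The last base was G in 52.7% of the sites, the base after which RNase T1 cuts.

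The sites lay in 3969 genes, and 1888 of these genes, 47.6%, had 1 such site. The 10 genes with the most sites held 209 of them. FAM155A, a gene linked to a sodium leak channel, had 25, FNDC3B had 24 and PTPRK, a receptor tyrosine phosphatase, had 23. RASAL2, a RAS GTPase activating protein, LIMCH1, SRGAP1 and NRG1, a ligand of ERBB receptors, had 20 each. NIPBL, which loads cohesin, GPC6, a cell surface glypican, and PDE7B, a cAMP phosphodiesterase, had 19 each. These genes had between 82 and 196 intronic clusters in the KRT19 KO cytoplasm and between 85 and 306 in the parental nucleus, so the introns of these hosts were bound in the nucleus as well.

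Nearly all host genes were also bound in their introns in a nucleus. Of the cytoplasm-only sites, 99.6% were in a gene with an intronic cluster in a nuclear library, and 43 sites were not. The share was also high in intronic clusters of the parental cytoplasm alone, at 96.6%, and in the 3'UTR sites of both cytoplasms, at 93.7%. A site common to all 4 libraries was found in 1938 of the 3969 host genes, 48.8% of them, and these were 70.9% of the 2735 genes with such a site. The nearest nuclear cluster on the same strand was a median of 519 nt away, with no other set measured beside it. It was within 10 nt for 1.68% of the sites, within 50 nt for 9.13%, within 500 nt for 49.1% and within 1000 nt for 68.7%. Among the 10 sites with the most reads, a nuclear cluster lay 3 nt and 63 nt from the AVL9 sites, 41 nt from the PEX13 site, 75 nt from the IRS1 site and 111 nt from the MRPL19 site.

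Within genes the mix of sites varied. Among the 77 genes with at least 30 intronic clusters shared by both cytoplasms, a set chosen after the values were seen, the median share that was cytoplasm-only was 29.9%. PTPRK had the highest share, with 23 of 39, or 59.0%, followed by DPYD, the enzyme that breaks down pyrimidines, with 18 of 31 and PDE4D with 17 of 31. EXT1, a heparan sulfate polymerase, had the lowest, with 15 of 143, or 10.5%, next to MYOF with 6 of 47. These are values of single genes with no test.

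By GENCODE 44 on GRCh37, 9530 of the sites, 93.3%, touched no exon of any transcript on their strand. An annotated exon overlapped 679 sites, 6.65% (6.18 to 7.15%), against 6.36% in the sites of all 4 libraries and 5.46% in the nuclear sites. The authors class all of them as intronic, and why the classes differ was not tested. Transcripts annotated as retained introns accounted for 270 sites, 2.64%. That share (2.35 to 2.97%) stood beside 3.93% (3.48 to 4.42%) in all 4 libraries and 3.30% (2.98 to 3.66%) in the nuclear sites, and the differences were not tested. A further 24 sites lay in 5'UTRs, with the motif in 70.8% of them, and 13 in coding sequence.

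Annotated 3'UTRs were more frequent among the cytoplasm-only sites than in the other intronic sets. Of them 212, in 149 genes, overlapped a GENCODE 3'UTR, a share of 2.08% (1.82 to 2.37%). The share was 1.25% (1.06 to 1.47%) in the sites of both cytoplasms and 1 nucleus, a difference of 0.830 points (0.490 to 1.18). It was 0.746% (0.565 to 0.985%) in the sites of all 4 libraries and 0.425% (0.317 to 0.570%) in the nuclear sites. From these the differences were 1.33 points (0.978 to 1.68) and 1.65 points (1.35 to 1.97). In cytoplasm-only sites of 100 reads or more it was 11.1% (6.47 to 18.4%), 12 of 108, against 1.41% in all 4 libraries and 0 of 113 in the nuclear sites. In sites of both cytoplasms and 1 nucleus it was also highest there, at 4.90% (3.16 to 7.52%), an interval that overlaps that of the cytoplasm-only sites. Below 50 reads the share in the cytoplasm-only sites stayed between 1.71% and 2.06%.

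**Figure D3:**
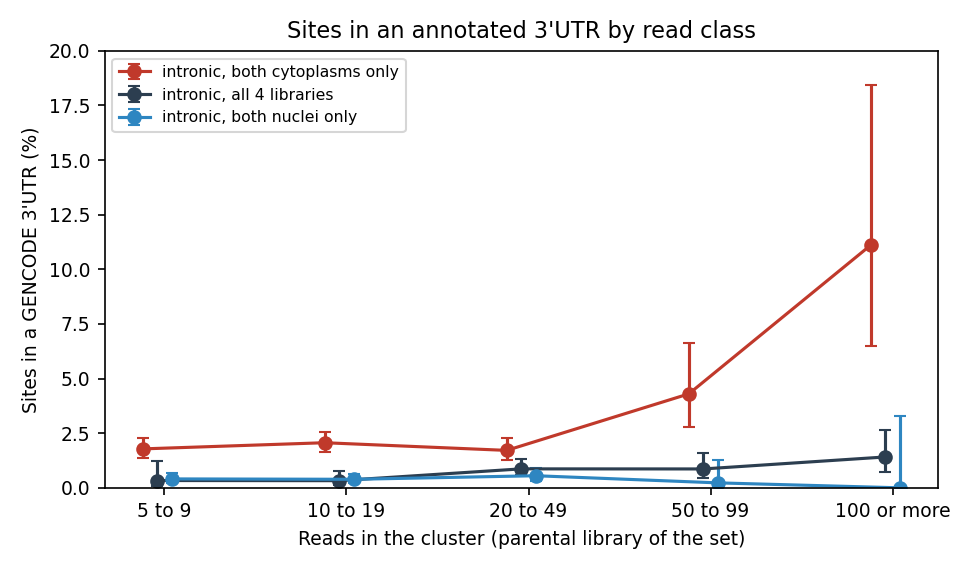
Share of intronic sites that overlap an annotated GENCODE 3'UTR (percent, vertical axis) by reads in the cluster (horizontal axis), with 95% Wilson intervals. The cytoplasm-only sites stand above both other sets plotted in all 5 classes and reach 11.1% in the 108 sites of 100 reads or more.

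The 3'UTR sites with the most reads were in genes of diverse function. AVL9, a protein of the late secretory pathway, had a site of 355 parental and 1038 KRT19 KO reads and another of 249 and 490. PEX13, a peroxisomal import factor, had 247 and 403 reads. TROVE2, which encodes the RO60 autoantigen, had a site of 218 and 315 reads and a site of 236 and 163. Further ones lay in WHSC1L1 with 195 and 217 reads, MICAL2 with 124 and 264, SETD5 with 136 and 251, AP1S3 with 155 and 219 and CNOT2, a subunit of the CCR4-NOT deadenylase, with 77 and 261. TROVE2 held 6 cytoplasm-only sites between 193055608 and 193058179 on chromosome 1, all within an annotated 3'UTR.

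Other dense groups, listed after the values were seen, were annotated differently. NEK2, a mitotic kinase, held 8 sites between 211837763 and 211840362 on chromosome 1, of which 2 were in an annotated 3'UTR. MRPL19, a mitochondrial ribosomal protein gene, held 7 sites between 75890672 and 75893494 on chromosome 2 that touched no annotated exon, and 5 sites upstream of them, between 75885510 and 75887714, that were in an annotated 3'UTR. IREB2, an iron regulatory protein gene, held 6 sites within 3000 nt with no annotated exon, and SARS held 5. A protein-coding transcript ended within 5000 nt before 993 of the 9530 sites outside exons, 10.4% (9.82 to 11.0%). That share was 8.80% (8.11 to 9.53%) in all 4 libraries and 8.68% (8.14 to 9.26%) in the nuclear sites. Another cytoplasm-only site lay within 500 nt of 6.18% (5.73 to 6.66%) of the 10209 sites. A neighbour of their own set lay as near for 5.71% of the 6569 sites in all 4 libraries and 3.96% of the 10355 nuclear sites. The sets were not made equal in size.

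Few of the cytoplasm-only sites lay just before an exon, as in the other intronic sets found in both cytoplasms. The 50 nt before the next exon of a protein-coding transcript, where the polypyrimidine tract lies, held 63 of the cytoplasm-only sites, 0.617% (0.483 to 0.789%). They held 2.90% (2.59 to 3.24%) of the nuclear sites, a difference of -2.28 points (-2.65 to -1.93), and 0.883% (0.684 to 1.14%) of the sites in all 4 libraries, a difference of -0.266 points (-0.556 to -0.00287). The sites of both cytoplasms and 1 nucleus had 0.641%, and the difference of -0.0235 points (-0.236 to 0.192) included 0. In nuclear sites of 100 reads or more this share was 9.73%, while 0 of the 108 cytoplasm-only sites of that size lay there, which allows a share of up to 3.43% by the Wilson interval. The 50 nt after the previous exon held 0.833% of the cytoplasm-only sites and 1.25% of the nuclear sites. Within 100 nt of any exon lay 9.76% (9.20 to 10.3%) of the cytoplasm-only sites, 9.94% of those in all 4 libraries and 11.6% of the nuclear sites. Most sites of every set were deep in introns, with a median distance to an exon of 2017 nt in the cytoplasm-only sites, 2095 nt in all 4 libraries and 2031 nt in the nuclear sites.

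**Figure D4:**
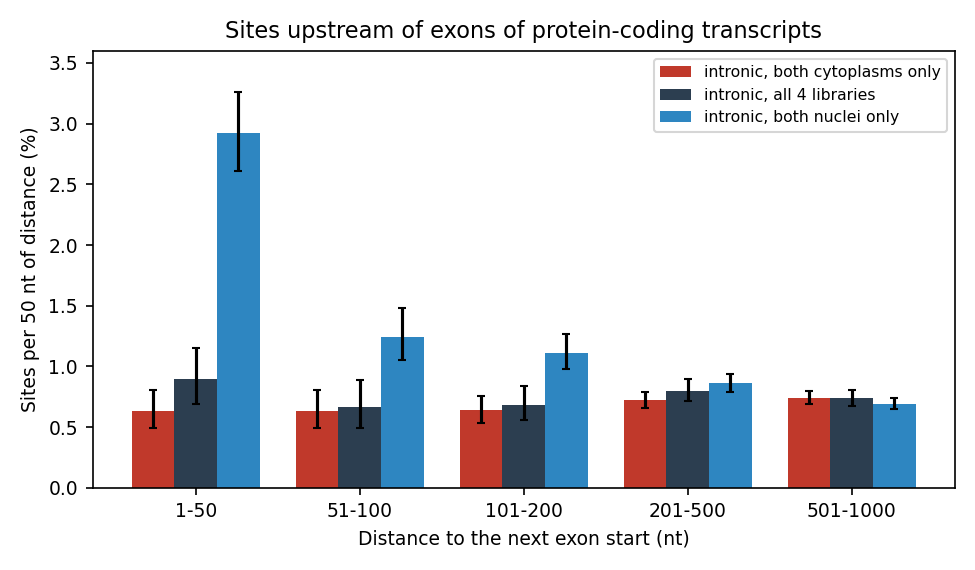
Share of intronic sites per 50 nt of distance (percent, vertical axis) by distance to the next exon start of a protein-coding transcript (horizontal axis), with 95% Wilson intervals; sites that touch such an exon are left out. The cytoplasm-only sites are level across the first 1000 nt, while 2.92% of the nuclear sites lie in the first 50 nt.

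The sequences of the sites were almost all unique by exact match, and near copies were not searched. More than 1 exact copy in the genome was found for 38 sites, 0.372% (0.271 to 0.510%), and among sites of at least 20 nt for 0.0591%. An annotated transcript of any type, retained introns included, contained the whole cluster for 665 sites, 6.51% (6.05 to 7.01%), which follows the share that touched exons. Exons of protein-coding transcripts overlapped 249 sites, 2.44%. In 8 sites a transcript of another gene contained it, and 7 of these were 15 to 25 nt long and occurred from 4 to 801 times in the genome. The remaining one, in JAK2, a cytokine receptor kinase, was 28 nt long with 18 parental and 43 KRT19 KO reads. It occurred once in the genome and was contained in a transcript of TCF3.

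The KRT19 KO cytoplasm was compared with the parental cytoplasm by reads per 1000000 reads in clusters. The median log2 ratio of the cytoplasm-only sites was -0.39, with quartiles of -1.04 and 0.25. Of them 807, or 7.90%, were at least 2-fold higher in the KRT19 KO cytoplasm, while 14.9% of all 51457 clusters shared by the cytoplasms were. At least 2-fold lower were 2744, or 26.9%, against 22.4% of all shared clusters. Of shared intronic clusters, 7.27% were higher and 30.5% lower, with a median log2 ratio of -0.49. The sites of all 4 libraries had a median of -0.60, with 6.15% higher and 34.1% lower, and shared 3'UTR clusters had a median of 0.42. Intronic clusters held 42.3% of all parental cytoplasmic reads and 23.0% of those from KRT19 KO, so the sign of these values depends on the scale. Scaled to the median of all shared intronic clusters, 1751 of the cytoplasm-only sites were at least 2-fold higher and 1416 lower, and higher ones made up 55.3% of those past 2-fold in place of 22.7%. These counts were 17.2% and 13.9% of the sites, against 26.5% and 11.6% of all shared clusters and 15.7% and 16.3% of shared intronic clusters on the same scale. Every site had at least 5 reads in both libraries by the rule, and reads in the 2 libraries had a Spearman correlation of 0.44 over the 10209 sites, a description over sites of the same 2 libraries.

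**Figure D5:**
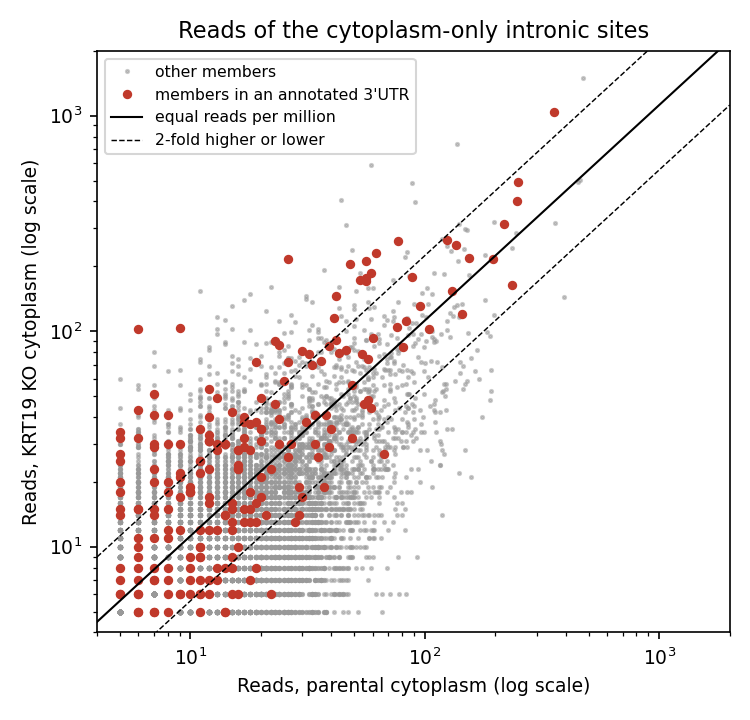
Reads of each cytoplasm-only intronic site in the parental (horizontal axis) and KRT19 KO cytoplasm (vertical axis), both on log scales. The solid line marks equal reads per 1000000 and the dashed lines a 2-fold difference, and of the 212 sites in an annotated 3'UTR, shown in red, 60 lie above the upper dashed line and 17 below the lower one.

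Sites in annotated 3'UTRs stood higher in the KRT19 KO cytoplasm than sites that touched no exon. Their median log2 ratio was 0.37, with 60 of the 212, or 28.3%, at least 2-fold higher and 17, or 8.02%, at least 2-fold lower. Sites that touched no exon had a median of -0.40, with 7.08% higher and 27.6% lower. The 3'UTR members were therefore nearer to the shared 3'UTR clusters, of which 28.9% were higher and 7.77% lower, on the same scale. Of the reads of all cytoplasm-only sites they held 3.27% in parental cells and 6.34% in KRT19 KO cells. Sites within 5000 nt after a transcript end, outside exons, lay between, with a median of -0.16 and 11.8% higher. Many higher sites were not particular to 3'UTRs. Of 30 sites in exons of nonsense-mediated decay transcripts 33.3% were higher, of 33 in exons of long noncoding RNAs 21.2% and of 270 in retained introns 14.1%. Of 24 sites in 5'UTRs 8.33% were higher, and of 13 in coding sequence 0. This difference between places was chosen after the values were seen, and it has no replicate check.

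Among the 10 sites with the most reads, 4 touched an annotated exon. The SEC31A site, in a gene for a COPII coat protein, had 474 parental and 1499 KRT19 KO reads, or 85.4 and 241 per 1000000, and lay in an exon of the noncoding gene THAP9-AS1. It was 2.82-fold higher in the KRT19 KO cytoplasm. The IRS1 site, in the gene of an insulin receptor adaptor, had 461 and 504 reads, and the MRPL19 site 452 and 493, so both were level, with log2 ratios of -0.03 and -0.04. The ATL2 site, in a gene that shapes the endoplasmic reticulum, had 359 and 318 reads. The SARS site, in the seryl-tRNA synthetase gene, had 137 and 735 reads, a log2 ratio of 2.26. The MASTL site, in the gene of a mitotic kinase, had 59 and 590 reads, or 10.6 and 94.9 per 1000000, and lay 58 nt from an exon. The RYR2 site, in a calcium channel gene, had 88 and 486 reads with a T-to-C share of 94.3% in the parental library. It lay 3917 nt from a nuclear cluster, the farthest of the 10.

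Among all cytoplasm-only sites, 2.08% were in an annotated 3'UTR and 93.3% touched no exon. Of the 448 sites with at least 100 reads in both cytoplasms together, 2 of the 5 with the highest ratio to the parental cytoplasm were in annotated 3'UTRs. The lowest 5 touched no exon, as most sites did. KHSRP, which encodes an RNA binding protein of AU-rich elements, was first with 6 parental and 102 KRT19 KO reads in a 3'UTR, a log2 ratio of 3.92. STAU1, a double-stranded RNA binding protein gene, followed with 11 and 153 reads, GOLGA7 with 9 and 103 in a 3'UTR, MASTL as above and TMPO, a nuclear lamina protein gene, with 44 and 407. LDHB, a lactate dehydrogenase gene, was lowest with 93 and 9 reads, a log2 ratio of -3.53. UTRN, the gene of utrophin, had 118 and 14 reads, ITGB1, an integrin gene, 157 and 21, PPP6R3 140 and 22, and PAWR 107 and 19. The library with fewer reads had 59 at MASTL, 44 at TMPO and 6 to 22 at the other 8 sites, so most of these ratios rest on few counts.

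The letters of these sites are given to show what lies at both ends of the ratio, with the motif in capitals as before. The MASTL site is shown above and no sequence is given for GOLGA7. The high end comes first.
KHSRP site, chr19:6414633-6414657, minus strand: ugcaggcggccuggcucuggcaggg
STAU1 site, chr20:47731458-47731484, minus strand: uuuaauucucuuacauuucaaaacuag
TMPO site, chr12:98926346-98926372, plus strand: aauguccuuuaaaaauuauaaauacaa
The low end follows.
LDHB site, chr12:21806128-21806157, minus strand: ccuuccacuucaauuuuucuuacauaccuc
UTRN site, chr6:144905227-144905256, plus strand: cauaaaacAUCCCCuauauucuuaaaucuc
ITGB1 site, chr10:33230805-33230834, minus strand: ccucauuuuUUCCCCuAACCCCauucuccc
PPP6R3 site, chr11:68374444-68374473, plus strand: auuauuccaaaauacaucaaaauauaaauu
PAWR site, chr12:80077458-80077484, minus strand: accuuaauaaaacuuuuacauaucuuu
The UTRN and ITGB1 windows hold the motif and the other windows of both ends do not. C made up from 11.1% of the bases, in TMPO, to 33.3%, in GOLGA7, at the high end and from 13.9%, in PPP6R3, to 48.5%, in ITGB1, at the low end, so the ends overlapped. These are single sites chosen by their ratio, and nothing was tested from their letters.

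Of 24 mesenchymal and adhesion genes, 15 held 99 cytoplasm-only sites, 5 at least 2-fold higher and 29 lower in the KRT19 KO cytoplasm, with a median log2 ratio of -0.45 against -0.39 for all cytoplasm-only sites. LPP and EXT1 had 15 each, ROR1, a receptor tyrosine kinase, 13 and EGFR 12. Of 25 genes for splicing factors that bind introns, 11 held 36 sites, led by MBNL1 with 11 and by PTBP2 and PTBP3 with 5 each, with 2 higher, 10 lower and a median of -0.66. Beside the lists, 7.90% of all cytoplasm-only sites were higher and 26.9% lower, and 14.9% and 22.4% of all shared clusters. Among the 5 genes of poly-C binding proteins, PCBP2 had 4 sites and PCBP3 1, with 0 higher and 1 lower. Of 40 abundant mRNAs with processed pseudogenes, 7 held 11 sites, with 3 in NAP1L1 and 2 each in KRT8 and HMGB1, and 1 higher and 1 lower. The lists of 17 small and structural noncoding RNAs, 7 nuclear long noncoding RNAs and 17 snoRNA host genes held 0 sites. They also held 0 of the intronic sites in all 4 libraries. Introns of long intergenic noncoding RNAs had a class of their own in the authors' annotation, with 4382 clusters in the parental cytoplasm. The rule left that class out, so these counts of 0 say little about binding of such RNAs. At least 1 protein-coding gene of GENCODE overlapped 99.8% of the cytoplasm-only sites, 99.8% of the sites in all 4 libraries and 99.6% of the nuclear sites.

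Just inside the rule were 59 sites with a nuclear cluster 1 to 5 nt away, with a median of 15 parental reads and 25.8% C. Just outside were 22 shared intronic clusters that overlapped a nuclear cluster by at most 5 nt, with a median of 10.5 reads and 28.4% C. On the other edge, 34 sites overlapped their KRT19 KO cluster by at most 5 nt, with medians of 8 and 7 reads.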

How the data were processed

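PAR-CLIP libraries of HNRNPK from 2 cell lines and 2 fractions were analysed, 1 library each; the 17 RNA-seq samples were not analysed here. Per the paper's methods, the authors aligned collapsed reads to hg19, called clusters with PARalyzer inside PARpipe and annotated them, while the labels list hg38; all sequences of the sites equalled GRCh37. For each cluster the authors deposited raw counts of reads, unique reads and reads with T-to-C changes, without normalization. Also deposited, and unused here, were columns that hold a fraction, a score or a log10 value. Parental cytoplasmic clusters were on 25 sequences and those of the other libraries on 77 to 86, contigs included.

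Overlaps were by strand, with at least 1 nt. Reads of all overlapping KRT19 KO clusters were summed, and ratios are of reads per 1000000 reads in clusters. Exons, transcripts and exact copies came from GENCODE 44 on GRCh37, and the nearest exon and transcript end were taken on the same strand. Precision is given as 95% Wilson intervals and 95% Newcombe intervals of differences, both of counting error only. Neither covers variation between experiments. No p-value was computed. Named were the 10 genes with the most sites, the 10 sites with the most reads in both cytoplasms, and, of sites with at least 100 reads, the 5 highest and 5 lowest ratios; of genes whose transcripts hold a site of another gene, all 8 sites were counted and 1 was named after its values were seen. From each gene list up to 4 genes were named. Members, lists and comparisons were chosen with earlier results of these data known.

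Overlap, copy search and motif search recovered all simulated cases, 1025 of 1025 overlaps, 300 of 300 copies and 68 of 68 motifs. Alternatives covered a minimum of 10 reads in both cytoplasms, an overlap of 10 nt, no nuclear cluster within 50 nt, an intronic KRT19 KO cluster, 1 site per gene, other motifs, lengths, distances, scales and folds. Analyses ran in Python 3.11.15 with scipy 1.17.1, pysam 0.24.0, pandas 2.3.3, numba 0.67.0, matplotlib 3.10.9 and numpy 2.4.6.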

Additional observations from a re-analysis of the deposited data

How the results depend on the processing

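With 1 library per condition, a share counted as moved outside its 95% interval, and a count beyond 1.5 times. Of 57 planned settings 31 did not move a result and 26 did, and of 10 chosen after seeing the data 8 did not and 2 did. No paired analysis was possible because each condition has 1 library and no test between groups was run. With at least 10 reads in both cytoplasms, 4586 sites were left, of which 7.85% were held by an annotated transcript and 0.0872% had more than 1 copy. Of these sites 32.4% held the motif, 11.4% lay within 100 nt of an exon and 2.81% in an annotated 3'UTR. C then made up 24.0%, the T-to-C share was 61.2%, and 327 sites were at least 2-fold higher and 1010 lower. With 1 site per gene, the transcript share was 7.73%, the copy share 0.252%, the motif share 35.1%, C 25.2%, the share within 100 nt of an exon 11.99%, the share with the next exon start within 50 nt 0.907%, the share in genes with an intronic nuclear cluster 98.99% and the T-to-C share 62.3%. Without sites that have a nuclear cluster within 50 nt, the T-to-C share was 66.8%. The motif CCC gave 38.0% and U[U/C]CCC 18.0%. Transcripts of other genes held 0.0784%, and of sites of at least 20 nt 0.0591% had more than 1 copy. Within 500 nt of an exon lay 22.0%. Scaled to shared intronic clusters, 1751 sites were 2-fold higher and 1416 lower, which turned the balance of higher and lower sites, as it did for all shared clusters (26.5% higher and 11.6% lower on that scale), and 4-fold left 123 and 514. In all other settings the values stayed within these limits, and the causes of the moves were not tested beyond the fewer sites or other limits that each setting states. Depth limits what absence from a nucleus means, as a site needs 5 reads to be a cluster, and how far it does depends on the scale.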
